A study of Arabidopsis thaliana with 24 samples.

Results

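The genes described here had higher transcript signals in fully expanded leaf blades of Arabidopsis thaliana than in young shoots, whatever the plants were watered with. They were chosen on array signals taken as log2(signal + 16). A probe set, the set of short array probes that reads 1 transcript or a few alike, was a member if its lowest value among the 16 blade arrays was at least 1 above its highest among the 8 shoot arrays. The blades also had to keep the level from 4 to 5 weeks, with the mean of the 8 arrays at 5 weeks less than 1 from that of the 8 arrays at 4 weeks. The members were 593 of 22746 probe sets tested, or 2.61%. The annotation gave 1 gene for 301 of them, several genes for 19 and none for 273, so 46.0% of the members carry no name here, against 38.4% of all probe sets.

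As a leaf leaves the dividing zone at the shoot tip and expands, its cells stop dividing and its chloroplasts fill with the photosynthetic machinery. It turns from importing sugar to exporting sucrose through the phloem, and it comes to rely on its own starch turnover, redox defence and stress proteins. Many leaf genes also follow the time of day, cold, and abscisic acid, the hormone of water shortage.

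The plants were wild-type Columbia-0, grown 3 to a pot of soil and vermiculite at 22 °C with 16 h of light and 8 h of dark. Every week from the first to the fifth after sowing, pots took up 25 ml from below of 1 mM GSSG (oxidized glutathione), 2 mM GSH (reduced glutathione) or 3 mM NH4NO3 (ammonium nitrate, a nitrogen source), and control pots took water. Whole aerial parts with the shoot apex were harvested 3 weeks after sowing (3W). At 4 weeks (4W) and at 5 weeks (5W) the samples were leaf blades, taken near the top among the leaves that had expanded in full. There were 12 groups with 2 samples and 2 arrays apiece. Nothing says that the samples of a group came from separate pots, so a p-value here covers the spread of these samples alone and that spread may be technical. Age and tissue change together between 3W and 4W and cannot be told apart, and in bulk tissue fewer cells of a type and less RNA per cell cannot be told apart either.

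The median signal of all probe sets was 185 to 192 on the 3W arrays and 154 to 178 on the blade arrays, which do not overlap. With each array centred on its median, the rule took 778 probe sets. The median over the members was 226 to 267 on the 3W arrays, 1440 to 1794 on the 4W arrays and 1703 to 1880 on the 5W arrays. The actin 3′ to 5′ signal ratio, a sign of how intact the RNA was, was 4.29 to 4.81 on the 4 arrays of 4W replicate 2 and 2.65 to 3.80 on the other 20. With those 4 arrays left out, the rule took 607 probe sets.

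**Figure D1:**
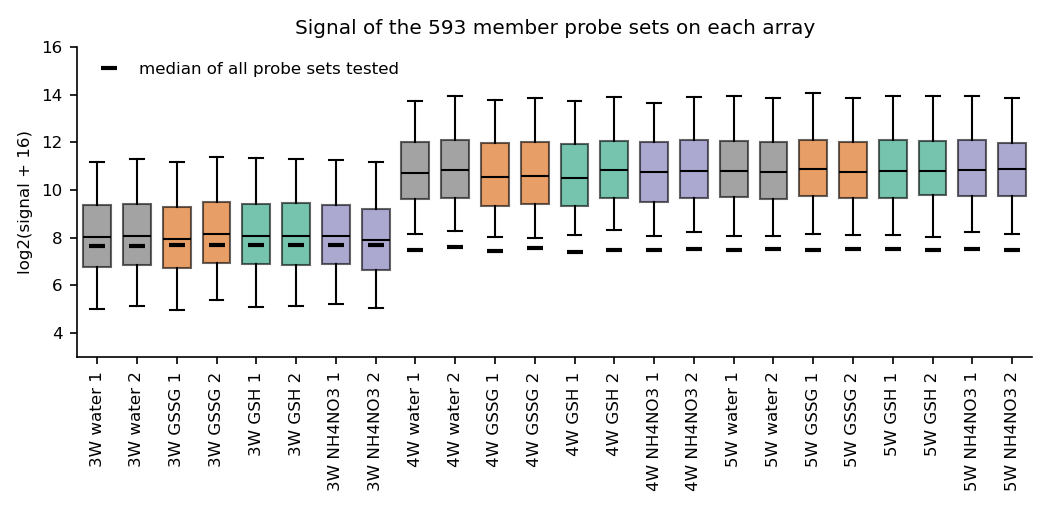
Signals of the 593 member probe sets on each of the 24 arrays, on the log2(signal + 16) scale. Boxes span the 25th to the 75th percentile of the members with their median, whiskers run from the 5th to the 95th percentile, and the thick dash is the median of all 22746 probe sets. The members' medians lie at 226 to 267 in signal units on the 3W arrays and at 1440 to 1880 on the blade arrays, while the median of all probe sets is 185 to 192 on the former and 154 to 178 on the latter.

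The blade level was above that of the shoots by a median of 2.53 on the log2 scale over the members, with a range of 1.48 to 8.26. These differences chose the members and are given with no test. Over all probe sets, 12.0% had every blade array above every 3W array, and 15.3% had every blade array below. Of the probe sets with 1 gene, 2.23% were members. These shares are the background for the counts of gene groups below. The gap between the lowest blade array and the highest 3W array reached 2 for 153 members, 3 for 31 and 4 for 9. For 103 members every 3W array was under a signal of 100, and log2(signal + 16) understates the difference of such dim probe sets.

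At the edges of the rule the choice was close. The members with the smallest gaps among named genes were AT3G19550, AT3G59300 and AT5G55620, each at 1.01. Just outside were AT1G16850, whose gap rounds to 1.00 but fell short of 1, and AT4G18975 and AT5G19240 at 0.99. The bound on leaf age left in COR47 at 0.98, AT1G11700 at 0.99 and AT2G15042 at just under 1.00, and left out AT5G66490 at 1.02, AT5G13200 at 1.06 and AT1G64360 at 1.07.

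The widest gap, 6.98 on the log2 scale, belonged to AT1G23130, a gene of the Bet v 1 and major latex protein family. Its signal ran from 40.4 through a median of 81.3 to 178 on the 8 shoot arrays, and from 24574 through 31336 to 37960 on the 16 blade arrays. Shoots and blades were far apart at every watering, and AT1G23130 was also among the 8 named members of highest blade signal.

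SWEET11, which moves sucrose out of phloem parenchyma cells on its way to export, came next with a gap of 5.72. It gave 59.3, 105 and 155 as lowest, median and highest signal in the shoots and 9028, 12834 and 17038 in the blades. ATSPS4F, a sucrose-phosphate synthase of the pathway that makes sucrose, had a gap of 3.20, with 3.56, 29.1 and 57.0 in the shoots and 653, 1486 and 3907 in the blades. Both ATSPS4F and SWEET11 were below the array's median in every shoot sample and above it in every blade sample.

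The other named genes of wide gap were less well known. AT5G24210, a class 3 lipase family gene, had shoot signals of 2.13 to 54.3 and blade signals of 1195 to 4640. The universal stress protein genes AT3G62550 and AT3G11930 had gaps of 3.62 and 3.23, and AT1G52870, of the Mpv17 and PMP22 membrane protein family, a gap of 3.19. AT1G30250 and AT1G30260, which lie next to each other on chromosome 1, had gaps of 4.19 and 3.71. The list of 12 ends with AT2G32160 at 3.77, AT1G21680 at 3.53 and AT1G13990 at 3.35.

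**Figure D2:**
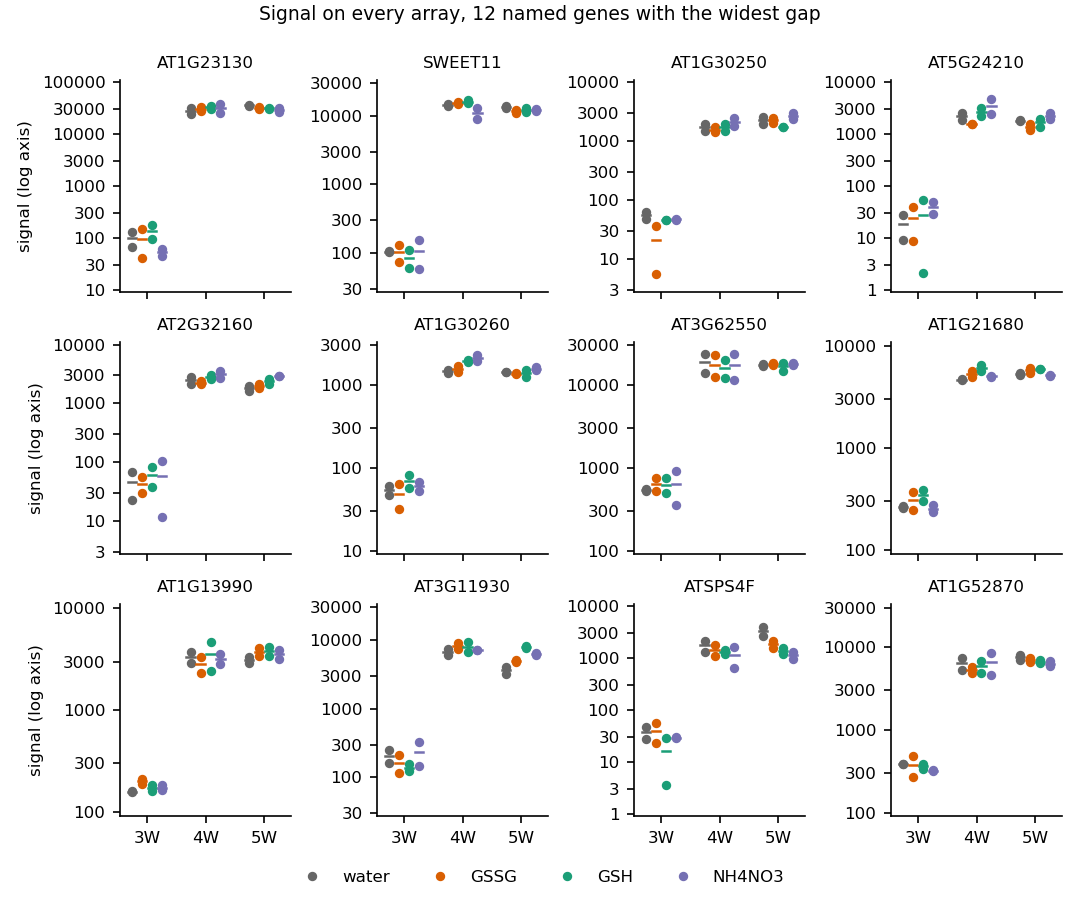
Signal on every array for the 12 named genes of widest gap, by harvest, on a logarithmic axis. Points are single arrays, short bars the means of the 2 arrays of a group, and colours the watering. In AT1G23130 the 8 shoot arrays reach at most 178 and the 16 blade arrays start at 24574.

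The 8 named members of highest blade signal were already well measured in the shoots, apart from AT1G23130. AT2G25510 had a median of 47167 over the blade arrays, with a lowest value of 21654, and a median of 6813 in the shoots. CCL, a gene whose transcript is known to be unstable and to follow the clock, had 8090 and 30797 as its medians in shoots and blades. ECS1 had medians of 4778 and 37851, and AT3G22240 had medians of 3104 and 33326. The calmodulin-like gene AT2G41090 had medians of 2751 and 25164, AT1G67865 of 1989 and 25308, and PIFI, of chloroplast electron flow, of 2143 and 22687. Apart from that of AT1G23130, their gaps ran from 1.25 to 2.75.

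Several enzymes of carbon metabolism were members besides ATSPS4F. FDH, the formate dehydrogenase, had 447, 515 and 611 as lowest, median and highest signal in the shoots and 5359, 7679 and 17229 in the blades. PPDK, which regenerates phosphoenolpyruvate from pyruvate, had 88.9, 134 and 158 in the shoots and 760, 1871 and 2792 in the blades. At 5W the 2 replicate numbers of FDH stood apart, with 8002 to 9891 on the replicate 1 arrays and 12363 to 17229 on the replicate 2 arrays.

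HPR, the hydroxypyruvate reductase of photorespiration, had shoot signals of 2493 to 3553 and blade signals of 7868 to 16353. AT5G26570 and AT4G24450, both of the dikinase type that adds phosphate to starch so that it can be broken down, differed by 1.83 and 3.37 on the log2 scale. Of the starch and sugar list, 2 of the 14 genes with a probe set of their own were members, SWEET11 and ATSPS4F. Of the 14, 7 had blades above shoots without overlap, beside 12.0% of all probe sets. HPR was the 1 member among 4 measured genes of the Calvin cycle and photorespiration, and LHCB4.3, a light-harvesting protein of the CP29 type, the 1 member among 7 of photosystems and light harvesting.

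Chloroplast functions also appeared among the members, on both genomes. PIFI, NdhS and CRR42, encoded in the nucleus, and ndhJ and ndhK, encoded in the chloroplast, all serve the chloroplast NDH complex, which feeds electrons back into the photosynthetic chain. PIFI had the largest difference of these, 3.39, and NdhS, ndhJ and ndhK differed by 2.77, 2.69 and 2.59. Of 16 measured genes for this complex and its assembly, 5 were members. Blades lay above shoots without overlap for 11 and below for none, beside 12.0% and 15.3% of all probe sets. The median difference was 1.22, against 0.01 over all probe sets. The complex was picked for this count after the members were seen.

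The chloroplast genome gave 4 members of its 69 measured genes, or 5.80%, against 2.23% of all probe sets with 1 gene. They were psbA, the D1 protein at the core of photosystem II, atpA of the ATP synthase, ndhJ and ndhK. psbA had 872, 1279 and 1611 as lowest, median and highest signal in the shoots and 9301, 11111 and 15431 in the blades. psbE, with a gap of 0.99, just missed the rule.

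Within the chloroplast genome the named functional classes differed from each other. The mean was higher in blades for 19 of the 20 photosystem genes, all 10 NDH genes, all 6 genes of the cytochrome b6f complex and all 6 of the ATP synthase, with median differences of 1.11, 1.03, 0.86 and 1.05. It was higher for 1 of 4 genes of the chloroplast RNA polymerase and 1 of 10 with a ribosomal protein symbol, with medians of -0.33 and -0.53. In these the ranges of blades and shoots overlapped in every case. The remaining 13 genes went both ways, with 8 higher in blades, a median of 0.05 and a range of -0.82 to 1.08. Both ends of this range are genes without a symbol here, ArthCp060 and ArthCp020. These classes go by gene symbol and were set after the values were seen. Ribosomal protein genes without a symbol here would be counted among the remaining 13, so the ribosomal class may be incomplete. The RNA was amplified from its 3′ end for polyadenylated messages, which chloroplast transcripts mostly are not, and how closely their signals follow the RNA present was not tested.

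**Figure D3:**
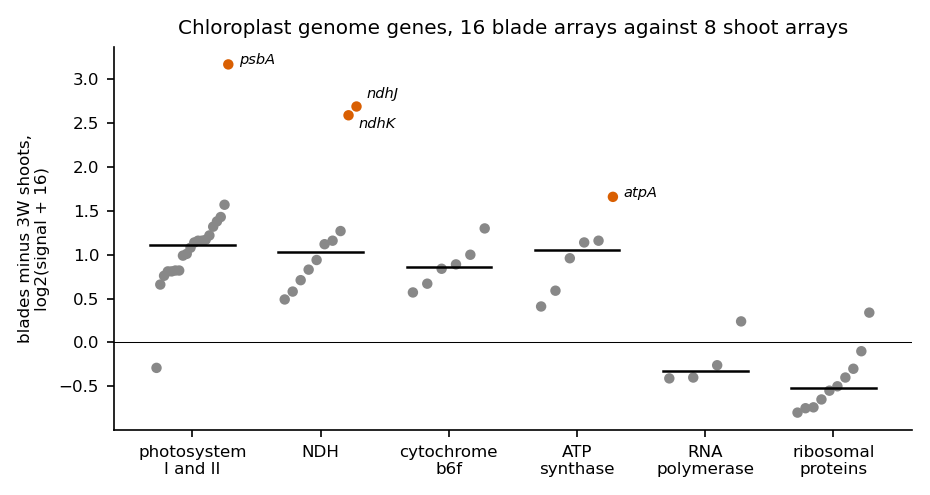
Difference of the mean log2(signal + 16) between the 16 blade arrays and the 8 shoot arrays for chloroplast genome genes, by class as read from the gene symbol. Each point is a gene, orange points are members, and bars are class medians. The photosystem, NDH, cytochrome b6f and ATP synthase medians lie between 0.86 and 1.11, and those of the RNA polymerase and ribosomal protein genes at -0.33 and -0.53.

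The cold-regulated genes formed a further group. COR15A and COR15B, whose proteins protect chloroplast membranes in the cold, the dehydrin COR47, COR27 and AT4G33980, both linked to cold and to light signals, were members, 5 of 6 measured genes in the group. The group was put together after the members were seen, so this share is a description only. COR15A had 363, 645 and 901 as lowest, median and highest signal in the shoots and 4258, 14031 and 25525 in the blades. COR15B had 881, 1307 and 2509 in the shoots and 9170, 15140 and 18139 in the blades. COR15A and COR15B are neighbours of much the same sequence, so their probes may read each other's transcript. The sixth gene, LTI30, also had blades above shoots, and missed the rule with a gap of 0.26 and a 5W mean 1.43 above that of 4W. By the wider list for abscisic acid, drought and cold, 3 of 5 measured genes were members. Of these 5, 4 had blades above without overlap, beside 12.0% of all probe sets. LEA4-5 overlapped, with a gap of -1.75.

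COR47 had 1913, 2016 and 2523 in the shoots. Its 4W arrays split by replicate number, with 5681 to 7416 on the replicate 1 arrays and 11153 to 15794 on the replicate 2 arrays, and its 5W arrays ran from 14213 to 22576. The 4W replicate 2 arrays are those of the high actin ratio, and the part of RNA quality in this split was not tested.

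AT3G44450, an inhibitor of the blue-light receptor cryptochrome, and AT1G07050, which carries the CCT motif of many flowering and clock regulators, were members with differences of 2.57 and 2.86. GI, the 1 measured gene of the clock list, was no member, with a gap of 0.77. The hour of each harvest is not given in the sources used here, so time of day was not tested as a part of these differences.

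Stress and turnover genes included 4 of the 20 measured universal stress protein genes, a family of small proteins raised by many stresses in plants and bacteria. AT3G62550 had 353, 539 and 911 in the shoots and 11391, 17679 and 23790 in the blades, and the other 3 were AT3G11930, AT3G01520 and AT2G47710. Members of the family differed among themselves. Of the 20, 10 had blades above shoots without overlap and 1 had blades below, beside 12.0% and 15.3% of all probe sets. ATG8F and APG8H, of the ATG8 proteins that coat the membranes of autophagy, were members, 2 of 9 measured. All 9 had a higher mean in blades, by 0.68 to 1.81. Both families were picked after the members were seen.

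The 14 detoxification and redox genes described among the members, put together after the members were seen, had differences of 1.71 to 3.64. GSTL3, GSTU27 and GSTU16, glutathione S-transferases, which join glutathione to other compounds, were 3 of 11 measured genes of that family, and the 11 had a median difference of 0.40. GSTL3 had 1686, 1826 and 2267 in the shoots and 5803, 7143 and 7830 in the blades. The group also held GRXC1, a glutaredoxin, SRX, a sulfiredoxin that repairs oxidized peroxiredoxins, AER, an alkenal reductase, GLX2-5, of the glyoxalase type, and the glucosyltransferases UGT84A3, UGT85A5 and UGT71C4. CYP71B23 and CYP71B28 were 2 of 3 measured genes of the cytochrome P450 list, and CYP71B24, close to CYP71B23 on chromosome 3, was a member as well.

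APS4, an ATP sulfurylase that activates sulfate for reduction, was the 1 member among 3 measured genes of the sulfur and glutathione list. Its signals were 406, 435 and 549 in the shoots and 2138, 3389 and 5240 in the blades. At 5W it had 4321 and 5240 in water, 4006 to 4375 with glutathione in either form, and 3410 and 3613 with NH4NO3. No comparison of a solution with water called APS4 at any harvest.

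Genes of pathogen recognition and immune signalling were among the members, and the whole families were not counted. There were 7 genes of the TIR or coiled-coil nucleotide-binding receptor type, led by AT3G04210 with 97.8, 165 and 260 in the shoots and 1651, 3561 and 4709 in the blades. The other 6 differed by 1.92 to 2.91, and AT5G58120 and AT1G15890 reached at most 34.3 and 39.4 in the shoots. There were 5 receptor-like kinases, which differed by 2.53 to 3.42, and the ubiquitin ligases RING1 and PUB24, which act in cell death and immune signalling. GLR2.7, a glutamate receptor-like channel, had 1.95, 3.67 and 15.1 in the shoots and 189, 340 and 455 in the blades. None of the 3 measured genes of the salicylate-linked defence list was a member.

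The 2-oxoglutarate-dependent dioxygenases, a large family that oxidizes hormones and secondary compounds, gave 8 members with differences of 1.97 to 4.09. AT5G43440 and AT5G43450, next to each other on chromosome 5, had blade ranges of 1405 to 2631 and 388 to 1233 and shoot ranges of 144 to 311 and 6.71 to 64.2. Calcium-binding EF-hand proteins gave AT2G41090, AT2G46600 and AT3G47480, with differences of 3.32, 3.68 and 2.93. These families were put together after the members were seen, and no count of the whole family was made for either.

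Some members lay side by side. Of 298 member genes with a known position, 26 stood in 13 pairs with at most 1 coding gene between them, and 7 of the pairs were direct neighbours. Besides the pairs above, AT1G23140 stands next to AT1G23130, AT3G26580 next to AT3G26590, and ndhJ next to ndhK. AT1G23140 had a difference of 2.75 beside the 8.26 of its neighbour. Chromosomes 1 to 5 had members at 2.55%, 1.98%, 2.32%, 1.76% and 2.28% of their measured genes.

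Other gene lists had few members or none. None was found among 6 measured genes of leaf senescence, 4 of jasmonate, 5 of glucosinolates, 7 of flavonoids, 6 of flowering, 16 of the cell wall, 2 of wax and cutin and 2 of nitrogen use. Many probe sets of well-known genes are unnamed here, so most list genes went unmeasured, and none of the phosphate list had a probe set of its own. Of the cell division list 3 genes were measured, and SIM overlapped, at 296 to 462 in the shoots and 224 to 410 in the blades. The other two had blades below shoots without overlap, AUR1 and AUR2, kinases of mitosis, at 1032 to 1368 and 960 to 1239 in the shoots and at 31.9 to 141 and 3.31 to 81.4 in the blades.

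Cell type markers were measured for a few genes only. RCA, the activase of the carbon-fixing enzyme and a mesophyll marker, was above the shoots in every blade array, at 24908 to 51110 against 10448 to 16648. The stomatal lineage genes SPCH and MUTE and the young-leaf gene YAB3 were below, and FMA and the trichome gene TRY overlapped. SWEET11, the 1 measured gene of the phloem list, is itself a member. CLV3, of the stem cells of the shoot tip, was at 4.45 to 38.6 in the shoots and 1.78 to 23.1 in the blades. None of the marker lists for dividing cells, xylem, root and flower had a gene with a probe set of its own, and the part of a change in cell make-up in the members' differences was not tested.

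Over the 16 blade arrays the members were steady to a different degree. The SD of log2(signal + 16) over these arrays had a median of 0.31 and ran from 0.09 to 0.99. The genes of least and most spread were picked after their values were seen. AT4G10000 was the steadiest named member, at 771 to 1003 in the blades and 212 to 357 in the shoots. AT3G47480, the EF-hand gene, was the most variable named one with an SD of 0.88, and its blade signals ran from 138 to 919. AT3G28540, AT1G51090 and CYP71B23 followed with 0.80, 0.79 and 0.77. RING1 had 0.73 and COR15A 0.69, and GSTL3 was near the steady end with 0.11.

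**Figure D4:**
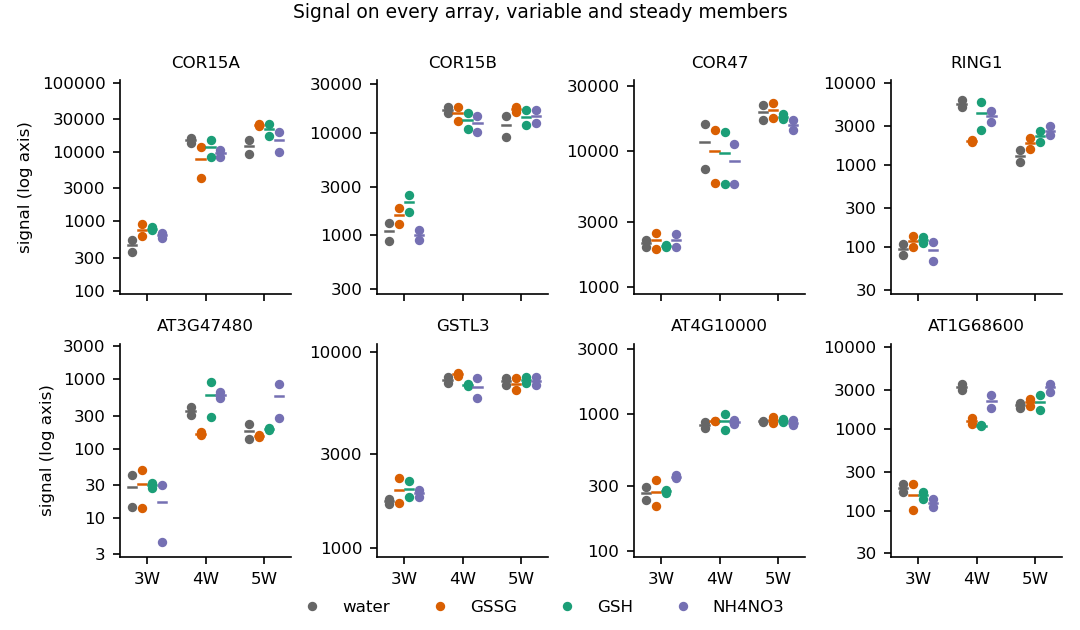
Signal on every array for 8 members by harvest, on logarithmic axes that differ between panels. Points are single arrays, short bars the means of the 2 arrays of a group, and colours the watering. GSTL3 and AT4G10000 keep within 5803 to 7830 and 771 to 1003 in the blades, RING1 spans 1085 to 6259, and COR47 at 4W splits into 5681 to 7416 and 11153 to 15794.

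The rule held the mean change from 4W to 5W under 1, and within that bound 355 members were higher at 5W and 238 lower, with a median of 0.08 on the log2 scale. For 455 members the change was under 0.5. Watering by watering, which the rule did not bound, the median change was 0.02 with water, 0.18 with GSSG, 0.10 with GSH and 0.10 with NH4NO3. With water 24 members were lower at 5W by more than 1 and 11 higher by more than 1, and with GSSG 1 was lower and 38 higher. The differences between waterings in this change were tested as interactions, given with the feeding results.

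The rule compared no watering with another, but it used every array. A gene lowered far enough by feeding in blades, or raised far enough in shoots, would have failed it. Whether feeding moved the members within a harvest was tested with limma over all 22746 probe sets. A probe set was called at an adjusted p under 0.05 (Benjamini-Hochberg). The comparisons with water at one harvest share the 2 water arrays of that harvest.

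In the young shoots, where the members were low, no member was called with GSSG, GSH or NH4NO3, and of all probe sets 0.0% was called. At an unadjusted p under 0.05, limma had 42, 54 and 36 of the members, or 7.08%, 9.11% and 6.07%, against 2.63%, 2.22% and 2.69% of all probe sets. The fit gave each probe set 1 spread for all harvests. Within groups the SD had medians of 0.243, 0.248 and 0.175 over the members at 3W, 4W and 5W. Over all probe sets these medians were 0.247, 0.335 and 0.279, and the part of this in the shares was not tested. The named members of smallest p were AT5G43450 with GSSG, at 19.3 and 6.71 in water and 45.7 and 64.2 with GSSG, AT4G14020 with GSH and AT1G76360 with NH4NO3, each with a limma adjusted p of 1.00.

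At 4W, limma also called no member with any solution, against 0.0484% of all probe sets with GSSG, 0.0044% with GSH and 0.0132% with NH4NO3. With the replicate number fitted as a block within each harvest, a setting chosen after the data were seen, members were called with GSSG and with GSH. At an unadjusted p under 0.05 there were 63, 37 and 34 members, or 10.6%, 6.24% and 5.73%, against 9.83%, 8.16% and 6.59% of all probe sets. The nearest to a call was AT1G68600, of the aluminium-activated malate transporter family. It had 2967 and 3529 in water, 1145 and 1371 with GSSG, 1075 and 1107 with GSH, and 1815 and 2550 with NH4NO3. All 6 fed arrays lay below both water arrays. The limma changes were -1.36 with GSSG (SE 0.26, adjusted p = 0.0645) and -1.56 with GSH (SE 0.26, adjusted p = 0.0521), and neither passed. With the block within each harvest both passed (limma adjusted p = 0.0037 and 0.00158).

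RING1 had 6259 and 5095 in water at 4W and 2008 and 1946 with GSSG, a change of -1.51 (SE 0.30, limma adjusted p = 0.0817) that did not pass. With the block within each harvest RING1 passed (limma adjusted p = 0.021). With GSH its 2 arrays stood apart at 2702 and 5912, and with NH4NO3 they gave 3394 and 4623. AT2G39920 had 2530 and 3066 in water, 1473 and 1462 with GSSG and 1359 and 1356 with GSH, with limma adjusted p of 0.116 and 0.0835. With the block within each harvest these were 0.0226 and 0.0136.

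At 5W the solutions gave different counts in the main fit. The block within each harvest gave a higher count for each solution and for their mean. With GSSG limma called no member, against 0.22% of all probe sets, and 42 members, or 7.08%, had an unadjusted p under 0.05, against 6.94% of all. With GSH 9 members were called, 1.52% of the members beside 1.49% of all probe sets. They were 6 higher and 3 lower, beside 1.02% and 0.47% of all. With NH4NO3 25 members were called, 4.22% beside 2.22% of all. They were 19 higher and 6 lower, or 3.20% and 1.01% of the members beside 1.58% and 0.637% of all. For the mean of the 3 solutions against water, 18 members were called, or 3.04% beside 2.02% of all. With feeding 13 were higher and 5 lower, beside 1.41% and 0.615% of all. In all, 27 members were called at 5W, and 19 of them have no single gene name here. All these shares compare probe sets of unlike brightness and spread. The mean blade signal had a median of 1765 over the members and 175 over all probe sets. At 5W the SD within groups had a median of 0.175 over the members and 0.279 over all. The part of these in the shares was not tested.

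These counts fell with any 1 array left out. The group of that array then had a single array, which mostly raised the SE of a change. A lost call thus does not show that the array left out had made the change. The GSH count of 9 became 0 without water replicate 2, 0 without GSH replicate 1 and 1 without GSH replicate 2. The NH4NO3 count of 25 became 15 without water replicate 1, 3 without water replicate 2, 9 without NH4NO3 replicate 1 and 16 without NH4NO3 replicate 2. The count of 18 for the mean of the solutions became 9 without water replicate 1, 0 without water replicate 2 and 11 without GSSG replicate 2.

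AT3G24190, a kinase of the ABC1 type, a family found in chloroplasts and mitochondria, was lower with feeding at 5W. It had 2023 and 2356 in water, 1572 and 1629 with GSSG, 1313 and 1372 with GSH, and 1140 and 1132 with NH4NO3. Every fed array lay under both water arrays, and the 3 solutions did not overlap with each other. AT3G24190 fell by 0.93 with NH4NO3 (SE 0.15, limma adjusted p = 0.00151) and by 0.70 with GSH (SE 0.15, limma adjusted p = 0.0243), and its change with GSSG of -0.44 did not pass (limma adjusted p = 0.467). The NH4NO3 call held with each of the 4 arrays left out, at adjusted p of 0.00561 to 0.0493 in limma, and the GSH call was lost without water replicate 2, GSH replicate 1 or GSH replicate 2, at adjusted p of 0.283, 0.259 and 0.0851. At 4W the NH4NO3 arrays were also lowest, at 883 and 1093 against 1259 and 1352 in water, with no call.

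CYP71B23, a cytochrome P450 of the CYP71B group, had the largest rise among the named members. It had 262 and 289 in water at 5W, 546 and 622 with GSSG, 670 and 855 with GSH, and 797 and 1495 with NH4NO3. It rose by 1.93 with NH4NO3 (SE 0.37, limma adjusted p = 0.00649), and the call was lost without water replicate 2 (limma adjusted p = 0.0596) or NH4NO3 replicate 2 (limma adjusted p = 0.103). With GSH the change of 1.41 did not pass (limma adjusted p = 0.0646). At 4W the order was another, with 708 and 809 in water and 209 and 442 with GSSG.

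The other named members called with NH4NO3 rose with smaller changes, apart from AT2G15580. AT5G44820 had 166 and 220 in water and 554 and 740 with NH4NO3, a rise of 1.66 (SE 0.32, limma adjusted p = 0.00671). AT5G52750, of the heavy-metal-associated domain family, had 749 and 687 in water and 2046 and 1977 with NH4NO3, a rise of 1.47 (SE 0.28, limma adjusted p = 0.00649). In both, the GSSG and GSH arrays lay between those of water and NH4NO3. The AT5G44820 call was lost without water replicate 1 or NH4NO3 replicate 2 (limma adjusted p = 0.0704 and 0.0746), and that of AT5G52750 without water replicate 2 or NH4NO3 replicate 1 (limma adjusted p = 0.0904 and 0.0767).

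AT1G13470 rose by 1.52 (SE 0.35, limma adjusted p = 0.0253), from 334 and 340 to 935 and 1056. AT3G56060, of the glucose-methanol-choline oxidoreductase family, rose by 1.08 (SE 0.23, limma adjusted p = 0.0155), from 488 and 425 to 1083 and 884. AT2G39920 rose by 0.92 (SE 0.20, limma adjusted p = 0.0153), and its GSSG and GSH arrays, at 1286 to 1831, stayed near the 1615 and 1558 of water. AT2G15580 fell by 0.62 (SE 0.15, limma adjusted p = 0.0333), from 3446 and 3269 to 2429 and 1953. The calls of AT1G13470, AT2G39920 and AT2G15580 were lost without any one of the 4 arrays compared, at limma adjusted p of 0.104 to 0.173, 0.0642 to 0.147 and 0.0523 to 0.248. That of AT3G56060 was lost without water replicate 2 or NH4NO3 replicate 1 (limma adjusted p = 0.183 and 0.205).

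CYP71B23, AT5G44820, AT1G13470, AT5G52750, AT3G56060 and AT3G24190 were also called for the mean of the 3 solutions at 5W, with limma changes of 1.46, 1.14, 1.14, 0.93, 0.80 and -0.69. Each has 6 of 6 fed arrays on the same side of both water arrays. Without water replicate 2 none of these 6 calls held, at limma adjusted p of 0.144 to 0.418, and without water replicate 1 the call of AT3G24190 held and those of the other 5 did not, at 0.0961 to 0.223. Single fed arrays left out ended the calls of AT5G44820, AT1G13470, AT5G52750 and AT3G56060 in some cases, at limma adjusted p of 0.0518 to 0.0911. Over the members, 75 had all 6 fed arrays above both water arrays at 5W, or 12.6% beside 6.69% of all probe sets, and 60 had them below, or 10.1% beside 9.01%. These shares too compare probe sets of unlike brightness and spread. At 4W these counts were 7 above and 17 below, or 1.18% and 2.87% beside 2.64% and 3.9% of all. At 3W they were 22 above and 10 below, or 3.71% and 1.69% beside 3.78% and 2.41%.

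For the mean of the 3 solutions limma called no member at 3W or 4W, beside 0.0% and 0.00879% of all probe sets. With the block within each harvest members were called at both, AT1G68600 at 4W among them (limma adjusted p = 0.00665). At an unadjusted p under 0.05 there were 40 members at 3W and 36 at 4W, or 6.75% and 6.07%, beside 2.22% and 7.96% of all.

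**Figure D5:**
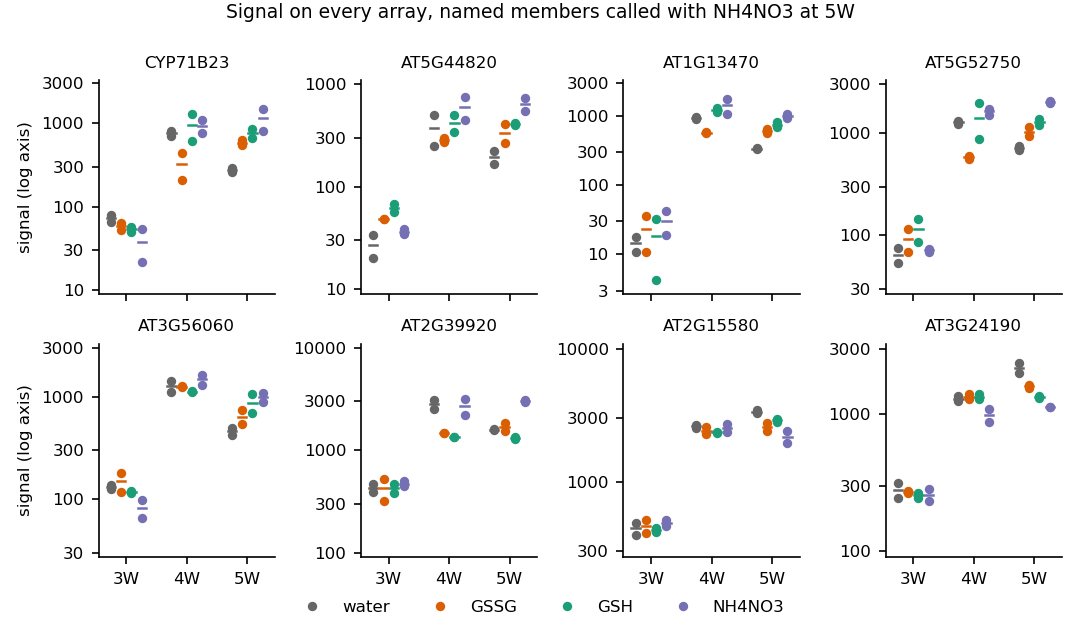
Signal on every array for the 8 named members called with NH4NO3 at 5W, by harvest, on logarithmic axes that differ between panels. Points are single arrays, short bars the means of the 2 arrays of a group, and colours the watering. At 5W CYP71B23 goes from 262 and 289 in water to 797 and 1495 with NH4NO3, and AT3G24190 from 2023 and 2356 to 1140 and 1132.

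The change of the feeding effect from 4W to 5W was tested as an interaction, and limma called no member for GSSG, GSH or NH4NO3, beside 0.00879%, 0.154% and 0.171% of all probe sets. At an unadjusted p under 0.05 there were 59, 48 and 60 members, or 9.95%, 8.09% and 10.1%, beside 6.65%, 8.43% and 7.5% of all probe sets. AT1G68600 came nearest, with a difference of 1.68 between its GSH effects (SE 0.37, limma adjusted p = 0.0707). RING1 had a difference of 2.03 for GSSG (SE 0.43, limma adjusted p = 0.264). With the block within each harvest, members were called for each solution. AT1G68600 for GSH and RING1 for GSSG were among them (limma adjusted p = 0.00488 and 0.0484). In water RING1 went from 6259 and 5095 at 4W to 1519 and 1085 at 5W, and with GSSG from 2008 and 1946 to 2161 and 1593.

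GSSG, which is a pair of glutathione molecules joined by a disulfide bond, was given at 1 mM and GSH at 2 mM. The doses thus differ in molar concentration and are equal in glutathione units. In 2 direct comparisons, 1 member was called at 4W, beside 0.00879% of all probe sets, and none at 5W, beside 0.0% of all in limma. At an unadjusted p under 0.05 there were 45 members at 4W and 17 at 5W, or 7.59% and 2.87%, beside 6.77% and 3.93% of all probe sets. The member called is a probe set unnamed here, picked out for its call. It had 720 and 465 with GSSG and 1839 and 4204 with GSH, a difference of -2.23 (SE 0.34, 95% interval -2.95 to -1.52, limma adjusted p = 0.0298). The call was lost without GSSG replicate 2 or GSH replicate 2, and without GSH replicate 1 the count was 7.

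Among named members at 4W, CYP71B23, at 209 and 442 with GSSG and 611 and 1301 with GSH, was lower with GSSG (95% interval of the difference -2.28 to -0.72, limma adjusted p = 0.282) and AT5G52750 by -1.16 (95% interval -1.75 to -0.57, limma adjusted p = 0.282), and neither passed. At 5W the named member of smallest p was AT3G48650, at -1.16 (95% interval -1.97 to -0.35, limma adjusted p = 1.00). For 536 members at 4W and 571 at 5W the difference was under 0.5. The 95% interval of a member reached a median of 0.50 to either side and at most 1.46. The size of difference that could be told from none thus varied between members.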

How the data were processed

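Transcripts were measured on 24 Affymetrix arrays, 1 per sample, from 100 ng of total RNA amplified from the 3′ end, per the labels' protocols. The deposited values are 1 intensity per probe set and array on a linear scale, made by the authors with Affymetrix Expression Console, per the submitters' processing notes; its version and how probes were summarised are unstated in those notes. Each array's trimmed mean was 500.0 to 500.1, so no further scaling was added. Precision is limited by 2 arrays per group.

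From these, log2(signal + 16) was computed, and 64 Affymetrix control probe sets were left out. limma 3.58.1 in R 4.3.3 fitted 1 mean per group to all 24 arrays, with 12 residual degrees of freedom and an intensity trend, and p-values were adjusted over 22746 probe sets by the Benjamini-Hochberg method. The script was tested on simulated data. Python 3.11.15, pandas 2.3.3, numpy 2.4.6 and matplotlib 3.10.9 served for the tables and figures. Gene names come from the platform annotation, with symbols updated to TAIR10.1, which matched 299 of the 301 members with 1 gene; a gene without a symbol is given by its locus tag.

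The members named come only from those with 1 gene in the annotation. Among these they are the 12 of widest gap, the 8 of highest blade signal, and members called in a comparison or the 3 of smallest p. Members in the gene lists, genes at the edges of the rule, neighbours and families are named too. The families were put together after the members were seen. The members, lists and tests were chosen with earlier results of these data known. Replicate numbers were not taken to pair samples in the main fit, and there are 2 numbers only. The deviations of arrays of the same number, each from its group mean, correlated at 0.05 to 0.25 within 3W, 0.24 to 0.39 within 4W and 0.12 to 0.40 within 5W. All of these are positive, and between harvests the correlations were -0.17 to 0.23. Alternatives were other scalings, pseudocounts of 1 and 64, a filter at the 40th percentile, no trend, a replicate block, fewer arrays and each array left out.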

Additional observations from a re-analysis of the deposited data

How the results depend on the processing

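With a gap of 0.5 the rule took 1242 probe sets and with 2 it took 153, and with any 1 array left out it took 587 to 630. Quantile normalization, centring on the median, pseudocounts of 1 and 64 and no bound on age gave 659, 778, 627, 509 and 633. The number called with GSH at 5W, 9, became 14 with quantile normalization, 19 with pseudocount 64, 20 with only probe sets above the 40th percentile, 1 without the intensity trend, 3 with only the arrays compared, and 20 without the 4 replicate 2 arrays of 4W. The number with NH4NO3 at 5W, 25, became 13 without the trend and 38 without those 4 arrays, and that for the mean of the solutions, 18, became 7 and 29. With GSH at 4W, 1 member was called with pseudocount 64 and with the filter. The single GSSG against GSH call at 4W was lost (0) without the trend, with only the arrays compared and without the 4 arrays.

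With the replicate number as a replicate block, 18 members were called with GSH at 5W and 1 with GSH at 4W. A replicate block within each harvest, chosen after seeing the data as was leaving out the 4 arrays, called 11 with GSSG and 5 with GSH at 4W, 3 with GSSG, 41 with GSH and 55 with NH4NO3 at 5W, 1, 3 and 48 for the mean of the solutions at 3W, 4W and 5W, and 6, 4 and 5 for the change of the GSSG, GSH and NH4NO3 effects from 4W to 5W. Under it AT1G68600 with GSSG and GSH at 4W (limma adjusted p = 0.0037 and 0.00158), RING1 with GSSG at 4W (0.021) and AT2G39920 with GSSG and GSH at 4W (0.0226 and 0.0136) passed, as did AT2G38465 with GSH at 4W (0.0453), AT1G68600 for the mean of the solutions at 4W (0.00665) and the change of effect from 4W to 5W of AT1G68600 for GSH and NH4NO3 (0.00488 and 0.0294), RING1 for GSSG (0.0484) and CYP71B23 for GSSG (0.036). Within a harvest, samples of the same replicate number also share a further number in their titles, whose meaning is not stated. Nothing else is known to be shared, so these counts are given beside the others without preference.

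With each array left out, the counts ran from 0 to 7 for GSH, 3 to 16 for NH4NO3 and 0 to 17 for the mean of the solutions at 5W, 0 to 7 for GSSG against GSH at 4W, 0 to 2 for NH4NO3 at 3W, and 0 to 1 for GSSG at 3W, GSH at 3W, the mean of the solutions at 3W, NH4NO3 at 4W and the change of the GSH effect. Of 881 values of named genes under all alternatives, 800 kept their side of the threshold, 64 lost a call, 17 gained one and 0 changed sign. The cause of these changes was not tested. Signals near the dim end limit the differences of members low in the shoots.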

Other observations

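The bound on leaf age kept out 40 probe sets that met the gap between blades and shoots, 35 of them at least 1 higher at 5W than at 4W and 5 at least 1 lower. SWEET13, a sucrose exporter of the same family as SWEET11, was among the 35, with at most 50.1 in the shoots and medians of 755 at 4W and 2120 at 5W. GAMMA-VPE, a vacuolar processing protease, had at most 1611 in the shoots and medians of 10724 and 31700. HIS1-3, a linker histone known to respond to drought, had at most 46.8 in the shoots and medians of 572 and 4473, and SUFE2, of iron-sulfur cluster assembly, at most 99.2 and medians of 448 and 2013. AT1G64360 had the widest gap of these, 5.78, with at most 40.8 in the shoots and medians of 6908 and 13493. The named genes that were lower at 5W were AT1G35710, with medians of 2300 and 1108, and AT5G18600, with medians of 3368 and 1528. These genes were picked after their values were seen.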
